A study of Danio rerio with 6 samples.

Results

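Mixed scars with 3 or more events are the alleles of the GFP target in which a read differs from the unedited sequence by at least 1 deletion and at least 1 insertion, and by at least 3 separate deletions and insertions in all. They were chosen by the alignment string of each scar and by its read count: a scar was kept in a fish when it had 10 or more reads in at least 1 library, and a library was a barcode with 1000 or more reads. By this rule 305 of 4273 kept scars were members, or 7.14%. Summed over the fish there were 320 occurrences, since 290 members were kept in 1 fish, 15 in 2 fish and 0 in 3 or more.

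Scars were read from genomic DNA of small dissected parts of many organs of 6 zebrafish, all 1 year old. All 6 fish carried a tandem array of histone-GFP transgenes and had received Cas9 with a guide RNA against GFP. Of these, 3 fish (R1, R2 and R3) were injected with Cas9 RNA and 3 fish (P1, P2 and P3) with Cas9 protein. The fish was the replicate of the injection, and the libraries of a fish were samples of 1 animal. The counts cover 31, 13 and 14 libraries in R1, R2 and R3 (Cas9 RNA), and 26, 23 and 23 libraries in P1, P2 and P3 (Cas9 protein). A library held between 2802 and 3198706 reads. Libraries are given by barcode number, because the list of dissected structures was not used, and libraries of the same structure were not summed.

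Cas9 cuts both strands of the target DNA, and joining of the ends by the cell can remove bases, add bases or do both. The altered target can no longer match the guide, so the allele is passed to all descendants of the cell. The paper used scars as marks of clones after removing those also detected in other fish. That step was not applied here. A scar is written here as its alignment string: M is a run of aligned bases, D a deletion and I an insertion, each preceded by its length, counted along the reference of 720 bp. In 541M1D3M4I6M1I169M, for example, base 542 is deleted, 4 bases are inserted before base 546 and 1 base is inserted before base 552. The span of a scar is the distance from its first to its last event, and its net change is bases inserted minus bases deleted. In the span a deletion counts with all its bases, and an insertion only as the position where it stands. The files give the string and not the inserted letters, so scars with the same string could still differ in the bases they gained.

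One library went against its label. Barcode 24 of fish P1 was the deepest library of that fish, with 2839277 reads, and its scars were closer to those of fish P2. Over the 3843 scars kept in at most 2 fish, its read shares overlapped by 9.43% with the other libraries of P1 and by 37.5% with P2. The other 25 libraries of P1 overlapped by 28.4% to 64.1% with their own fish and by at most 4.40% with any other. Of the 130 libraries it was the 1 library that was nearer to another fish than to its own. Outside it the highest overlap with another fish was 10.2%, in barcode 14 of R3 (28.2% with its own fish). Barcodes 10, 12 and 13 of R3 overlapped by 8.12%, 13.5% and 17.8% with their own fish. With the nearest other fish they overlapped by 5.75%, 9.22% and 7.54%, and all of these libraries were kept. In barcode 24 a single 1-bp insertion before base 533 made up 38.8% of scarred reads. This scar had 0.273% to 4.13% in the other P1 libraries and a median of 24.2% in P2 libraries. Barcode 24 carried 43 members, and 41 of these were in no other P1 library. All 41 had reads in fish P2, against 3 of the 61 remaining P1 members. Several values are therefore also given without this library, and where only 1 value is given, barcode 24 is included. Without it 276 of 4111 kept scars were members.

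The number of members differed widely among fish. In the Cas9 RNA fish, R1 held 101 members of 1650 kept scars (6.12%), R2 held 7 of 497 (1.41%) and R3 held 19 of 594 (3.20%). In the Cas9 protein fish, P1 held 102 of 1620 (6.30%), P2 held 50 of 780 (6.41%) and P3 held 41 of 974 (4.21%). The values of both injections overlapped, and fish R2 was the lowest by either measure. Without barcode 24, P1 held 61 of 1358 kept scars, or 4.49%. Members averaged 3.58 ± 2.38% of the kept scars with Cas9 RNA and 5.64 ± 1.24% with Cas9 protein (SD, n = 3 fish each). The difference of -2.06 percentage points gave p = 0.2 in a two-sided exact permutation test over fish (adjusted 0.36 over the 9 comparisons computed here). With 3 fish against 3 this test cannot give a p below 0.1. Without barcode 24 the difference was -1.46 percentage points (exact permutation p = 0.4).

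Most members held the minimum of 3 events. Of the 305 members, 248 (81.3%) had 3 events, 46 (15.1%) had 4 and 11 (3.61%) had 5. The commonest make-up was 2 deletions with 1 insertion, in 215 members (70.5%), followed by 3 deletions with 1 insertion in 41, 1 deletion with 2 insertions in 33, and 4 deletions with 1 insertion in 9. Only 7 members held at least 2 deletions and at least 2 insertions. By fish, 3 events were found in 88 of 101 members of R1, 7 of 7 of R2 and 13 of 19 of R3, and in 83 of 102 of P1, 40 of 50 of P2 and 32 of 41 of P3. Without barcode 24 it was 45 of 61 in P1. Members with 5 events were kept in P1, where there were 9 (6 without barcode 24), and in P3, where there were 2. The 5-event members took 3.49% of all member reads.

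Nearly every member contained an event of a single base. This held for 301 of 305 members (98.7%), against 70.1% of the kept scars with 3 or more deletions and no insertion and 90.1% of those with 1 deletion and 1 insertion. The insertions were the short part: 288 of 346 (83.2%) were of 1 bp, 27 were of 2 bp, and the longest was 8 bp. Of the 637 deletions, 227 (35.6%) were of 1 bp and 168 were of 2 bp; their median was 2 bp and the longest was 30 bp. The 4 members without a 1-bp event were 515M3D12M2I12M4D174M (220 reads) and 515M3D14M2I10M4D174M (94 reads) in P3, 522M2D4M2D14M2I176M (153 reads) in R1 and 529M11D2M5D19M6I154M (32 reads) in R3. The pair in P3 has the same 3 events, with the insertion 2 bp further along in 1 of them.

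The events lay on both sides of the base that was most often deleted. That base was 542, 543 and 542 in R1, R2 and R3, and 542, 544 and 545 in P1, P2 and P3, and was missing from 63.7%, 63.7% and 56.6% of scarred reads in the Cas9 RNA fish and from 75.3%, 47.2% and 73.8% in the Cas9 protein fish. Members spanned it in 90 of 101 cases in R1, 4 of 7 in R2 and 15 of 19 in R3, and in 95 of 102 in P1, 48 of 50 in P2 and 37 of 41 in P3. No such count for other scars is set beside these, so they describe the members alone. The base was itself chosen as the one most often deleted. The median deletion of a member started at base 531 and the median insertion stood at base 543. The positions with most insertions were 546 (43 insertions), 548 (31) and 547 (30), and the window from 544 to 548 held 120 of 346 insertions (34.7%). Deletions started most often at base 534 (49 deletions), 523 (36), 518 (31) and 529 (31). Among the 265 members with 1 insertion, the insertion was the last event in 124, lay between deletions in 101 and came first in 40. No 2 events of a member touched; the nearest pair of events in a scar was 2 to 21 aligned bases apart, with a median of 5.

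Most members were shorter than the reference. Their span ranged over 10 to 79 bp with a median of 29 bp (quartiles 23 and 36). The median was 28 bp for 3 events, 32.5 bp for 4 and 41 bp for 5. The net change ranged over -38 to 8 bp with a median of -4 bp (quartiles -7 and -2), so that 270 members (88.5%) were shorter than the reference, 30 (9.84%) were longer and 5 kept its length. Members with 1 deletion and 2 insertions had a median net change of 1 bp, and those with 2 deletions and 1 insertion a median of -4 bp. The change was a multiple of 3 in 107 members (35.1%), beside 34.8% of all other kept scars. Per fish the median net change was -5, -2 and -6 bp in R1, R2 and R3, and -4, -5 and -2 bp in P1, P2 and P3. For scars of 1 deletion with 1 insertion it was -1, 0 and 0 bp in R1, R2 and R3, and -0.5, 0 and 0 bp in P1, P2 and P3. For deletions-only scars with 3 or more events it was -15, -9.5 and -14 bp, and -14, -14 and -11 bp.

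The members were narrower than the multi-event scars made of deletions alone. Their median span was 29, 17 and 30 bp in R1, R2 and R3, against 36, 31 and 32 bp for the deletions-only scars with 3 or more events in the same fish, and 29, 28.5 and 28 bp in P1, P2 and P3, against 35, 35 and 32 bp. The members had the shorter median in 6 of 6 fish, with a mean difference of -6.58 bp. Without barcode 24 the P1 median for members was 30 bp and the mean difference was -6.75 bp. The length of an insertion does not count in the span, which by itself favours a shorter span for members. The test cannot separate this from the spacing of the events. The two-sided exact sign-flip permutation test over fish gave p = 0.031, the smallest that 6 fish allow, and 0.0938 after adjustment, which misses 0.05. Both ranges were wide: the quartiles in R1 were 22 and 41 bp for members, against 25 and 44 bp for deletions-only scars. The difference was smaller under higher limits of reads. With a limit of 100 reads it was -4.00 bp, and with a limit of 0.1% of the reads of a library it was -1.30 bp (exact permutation p = 0.5 over 5 fish). Scars of 1 deletion with 1 insertion had median spans of 15, 21 and 17.5 bp in R1, R2 and R3, and 19, 18 and 21 bp in P1, P2 and P3. Members were wider than these in every fish except R2.

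In fish R1, members took a mean of 0.817% of the scarred reads of a library, but 4 libraries carried most of this. These were barcodes 7, 16, 22 and 6 with 9.44%, 4.54%, 3.61% and 3.03%, while the other 27 libraries lay between 0.0336% and 0.851%. A different member led in each of the 4. The member of R1 with most reads was 522M2D4M1I14M2D176M, which loses bases 523 to 524 and 543 to 544, gains 1 base before 529, spans 22 bp and is 3 bp shorter than the reference. It had 11929 reads, of which 11371 were in barcode 6, where it was 2.26% of scarred reads (95% Wilson interval 2.22 to 2.30). Over the 31 libraries its share was 0% at the lowest, 0.00770% at the median and 2.26% at the highest, so a single library stood far above all others. It was read in 30 of 31 libraries and reached 10 reads in 19.

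The member of R1 in most libraries was 517M5D6M1D16M1I175M, with 10 or more reads in 21 of 31 libraries and 7647 reads in all. It loses bases 518 to 522 and base 529 and gains 1 base before 546. Its share was 0% at the lowest, 0.00649% at the median and 8.26% at the highest, in barcode 7 (95% Wilson interval 8.07 to 8.45), and the next library, barcode 14, had 0.751%. Barcodes 16 and 22 were led by 2 scars that are named here after their values were seen. In barcode 16, 513M1D3M1I16M11D176M was 4.33% of scarred reads, with a median of 0.00480% and a highest of 0.688% in the other libraries, and barcode 16 held 5465 of its 10749 reads. In barcode 22, 517M5D11M2D11M1I174M was 3.22% of scarred reads, with at most 0.0111% elsewhere. The longest-spanning member also came from R1: 501M27D3M12D36M1I141M covers 79 bp, is 38 bp shorter than the reference, and had 60 reads, with 10 or more in 2 libraries. Its span reaches to a 1-bp insertion before base 580. The scar that lacks only this insertion, 501M27D3M12D177M, had 177 reads in the same fish.

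Fish R2 and R3 held few members at low levels. They also had the fewest scarred reads of all fish, 1221515 and 2334190. In barcode 7, the deepest library of R2, 473263 of 3198706 reads were scarred. In R2 the libraries had 0% to 0.0610% of scarred reads in members, 6 of the 13 libraries had no member read, and 9 had no member with 10 reads. All 7 R2 members reached 10 reads in a single library. Most reads, 39 each, were held by 518M12D6M5D4M1I175M, with 38 in barcode 11 or 0.0211% of its scarred reads (95% Wilson interval 0.0154 to 0.0290), and by 523M1I5M1D7M1D183M, with all 39 in barcode 8 or 0.0465% (0.0340 to 0.0636). In R3 the libraries had 0.00392% to 0.280% in members. The member with most reads, 517M5D6M2D15M1I175M, had 544 of 552 reads in barcode 7 (0.125%) and at most 0.00128% elsewhere. No R3 member reached 10 reads in more than 4 of 14 libraries, and 2 did so in 4: 515M2D4M2D5M3D13M1I176M, which has 4 events, 107 reads and a highest share of 0.00918%, and 543M1I2M8I30M1D144M. The second adds 9 bases and loses 1, for a net gain of 8 bp, the largest among members; it had 73 reads over 11 libraries, and 2 further R3 members with the same events and gain, 543M1I2M8I28M1D146M and 543M1I2M8I14M1D160M, had 53 and 41 reads. The scar that lacks only the 1-bp deletion, 543M1I2M8I175M, had 48061 reads in the same fish.

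In fish P1 the member share was low in every library, between 0.0252% and 0.458%. The member with most reads, 513M1D7M4D8M1D5M2D5M1I174M, is also the member with most events and most reads among the 11 that have 5: it has 4 deletions and 1 insertion over 34 bp and a net change of -7 bp. It had 1696 of its 1799 reads in barcode 6, where it was 0.213% of scarred reads (95% Wilson interval 0.203 to 0.224). The median over the 26 libraries was 0.000635%. The P1 member in most libraries, 513M1D2M4D3M1I8M6D5M1D177M, also has 5 events and reached 10 reads in 18 of 26 libraries, with shares of 0% at the lowest, 0.00572% at the median and 0.0157% at the highest. Its 1008 reads were spread, 20.8% of them in the library with most. The largest net loss was 38 bp, in 487M1I5M20D15M19D174M, which had more reads than the R1 scar of the same loss, with 159 reads of which 38 were in 1 library; it reached 10 reads in 4 libraries.

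In fish P2 the member share ran from 0.0118% to 1.52%. The member with most reads was 510M2D4M1I14M14D176M, with 2130 of 2194 reads in barcode 1 (0.430%, 95% Wilson interval 0.413 to 0.449) and at most 0.00580% elsewhere. That library carried 38 of the 50 members of P2. Its read shares overlapped by 11.1% with the other libraries of P2 and by 5.52% with P1. Every other P2 library overlapped by 33.7% or more with its own fish. The counts of P2 members without barcode 1 were not computed. Barcodes 14 and 15 were led by the same scar, 518M1D3M4D5M14D6M1I169M, at 1.47% and 0.758% of scarred reads; it was singled out after its values were seen and had a median of 0.000415% outside each. The P2 member in most libraries, 525M2D6M1D17M4I169M, behaved differently: it reached 10 reads in 22 of 23 libraries, and its share lay between 0.00694% and 0.0636% with a median of 0.0329%. It removes bases 526 to 527 and base 534 and gains 4 bases before 552, for a net gain of 1 bp.

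In fish P3, 2 members were both high in some libraries and widespread. The first, 541M1D3M4I6M1I169M, is short, with a span of 11 bp and a net gain of 4 bp, and had 13576 reads, 46.7% of all member reads of the fish. It reached 10 reads in 22 of 23 libraries, and its share was 0.0111% at the lowest, 0.0394% at the median and 1.83% at the highest. Barcodes 11, 19 and 2 had 1.83%, 1.61% and 1.40%. The second, 523M2I11M1D8M2D3M1D171M, has 4 events and reached 10 reads in all 23 libraries, with 0.0197% at the lowest, 0.195% at the median and 0.922% at the highest, in barcode 8. In barcodes 11, 19 and 2 it had 0.247%, 0.265% and 0.386%, above its median, and these libraries ranked 9, 6 and 4 for it. Over the 23 libraries, which are parts of 1 fish, the shares of both scars had a Pearson r of 0.08, given as a description. Weighted by reads, the members of P3 had a mean net change of 0.261 bp and a mean span of 19.3 bp, beside unweighted medians of -2 and 28 bp.

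The second scar of P3 came with others that have the same events in the same order and differ in the place of 1 base. The scars 523M2I9M1D10M2D3M1D171M and 523M2I3M1D16M2D3M1D171M, named after their values were seen, had 2022 and 633 reads and moved the 1-bp deletion by 2 and by 8 bases. Their shares followed those of 523M2I11M1D8M2D3M1D171M over the 23 libraries, with a Pearson r of 0.99 for each. In the 22 libraries where both had 10 reads, the reads of the first were 0.207 to 0.528 times those of the lead scar, with a median of 0.266. For the second the ratio was 0.0683 to 0.121 over 16 libraries, with a median of 0.0822. The same strings without the 2-bp insertion had 8135, 6789 and 4512 reads in P3, so the 3 members were outnumbered by the scars from which they differ by that insertion. How reads of 1 allele could be placed as several strings was not tested, because the reference sequence was not used here.

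Of the 320 occurrences, 198 (61.9%) shared their ordered event lengths with at least 1 other member of the same fish, in 60 groups of up to 7 members. No count for other scars is set beside this, so it describes the members alone. The leading scar of a group held a median of 61.9% of the reads of the group. In R1 the group of 522M2D4M1I14M2D176M had 6 members, of which the named scar took 96.7% of the reads, and in P2 the group of 525M2D6M1D17M4I169M had 4 members, of which it took 89.5%. By fish, 70 of 101 occurrences in R1, 2 of 7 in R2 and 5 of 19 in R3 were in such groups, and 66 of 102 in P1, 29 of 50 in P2 and 26 of 41 in P3. Without barcode 24 it was 30 of 61 in P1 and 162 of 279 occurrences in all. The 305 members are a count of strings, and how many separate edits they stand for was not tested.

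Each member was also set beside the scars that lack 1 of its events. For 281 of 320 occurrences such a scar had at least 1 read in the same fish, and for 148 it was itself kept. In 105 (32.8%) it had more reads than the member (83 of 279 without barcode 24), and in 52 it had at least 10 times as many. In P1 the count with more reads was 33 of 102, against 11 of 61 without that library. No such count for scars outside the members is set beside these. The event that set both apart was of 1 bp in 77 of those 105, and the scar with fewer events was highest in the same library as the member in 88. Some 1-bp events recurred at the same bases in different scars and fish. In R1, members add to 533M5D8M1I174M (149400 reads) a 1-bp deletion at base 560, 574, 576 or 580. They had 83, 145, 253 and 75 reads. Members of P1 that begin with 543M4I8M3I each lose 1 of the same bases. Insertions of 1 bp before bases 580 to 582 recurred in R1, P1, P2 and P3. The P2 scar, 517M1D21M3D39M1I139M, was also kept in P1, through barcode 24. Members of this kind were not counted. Whether these and the other 1-bp events arose in the fish or during amplification and sequencing was not tested. At the other end, 118 occurrences (36.9%) had no such scar with more than 0.1 times their reads. Among the 20 occurrences with most reads, 15 were of this kind and 2 were outnumbered. These 20 were chosen by their own reads, which by itself favours the first outcome. For 541M1D3M4I6M1I169M of P3 no scar lacking 1 event had a read, and for 522M2D4M1I14M2D176M of R1 the highest had 4 reads beside 11929.

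The share of scarred reads in members varied as much within an injection as between injections. The mean over libraries was 0.817%, 0.0131% and 0.0608% in R1, R2 and R3 (Cas9 RNA), and 0.0997%, 0.223% and 0.794% in P1, P2 and P3 (Cas9 protein). The highest 2 fish, R1 and P3, are of different injections, and the 2 lowest are R2 and R3. The mean was 0.297 ± 0.451% with Cas9 RNA and 0.372 ± 0.370% with Cas9 protein (SD, n = 3 fish each). The difference was -0.0751 percentage points, well inside the spread among fish (two-sided exact permutation p = 0.6, adjusted 0.6). Its sign changed with the fish left out: it was 0.0669 without R2, 0.0430 without R3 and 0.136 without P3. Barcode 7 alone held much of the R1 value, which was 0.530% without it, and the difference was then -0.172 percentage points (exact permutation p = 0.5). Beside the members, the deletions-only scars with 3 or more events took a mean of 2.40%, 2.69% and 1.44% of scarred reads in R1, R2 and R3, and 3.80%, 1.80% and 7.51% in P1, P2 and P3.

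Members were mostly kept in a single fish. Of the 305 members, 290 (95.1%) were kept in 1 fish, where 80.9% of all 4273 kept scars were. Per fish, 98.0%, 85.7% and 94.7% of the members of R1, R2 and R3 were kept in no other fish, against 64.6%, 35.5% and 39% of their other scars. For P1, P2 and P3 the values were 88.2%, 76% and 95.1% of members, against 60.5%, 40.7% and 59.4% of other scars. Members were the higher in 6 of 6 fish, by a mean of 39.7 percentage points. The other scars include strings with fewer events. A string with more events must match at more positions and lengths, which by itself favours a higher value for members. The test cannot separate this from other differences between members and other scars. The two-sided exact sign-flip permutation test gave p = 0.031, the smallest that 6 fish allow, and 0.0938 after adjustment over the 9 comparisons, which misses 0.05. A scar shared between fish lowers the value of each of them, so the fish are not independent in this measure. Every test of single-fish scars given here treats them as independent. Without barcode 24 the mean difference was 43.9 percentage points (exact permutation p = 0.031), 98.9% of the 276 members were kept in 1 fish, where 82.4% of all kept scars were, and both P1 and P2 were at 100%.

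Reaching the limit in another fish takes reads, and members had fewer than the other scars. The median of their highest library count was 18, 13 and 19 in R1, R2 and R3, against 37, 52 and 55 for the other scars, and 26.5, 20.5 and 24 in P1, P2 and P3, against 34, 32 and 32. Without barcode 24 the P1 values were 34 for members, against 35. Among scars whose highest count was below 100 reads, 100%, 85.7% and 94.1% of members were kept in 1 fish in R1, R2 and R3, against 71.8%, 42.1% and 48.7% of other scars. The values in P1, P2 and P3 were 90.8%, 72.5% and 93.8% of members, against 71.4%, 47.7% and 66.6%. Without barcode 24, P1 and P2 were both at 100% of members, against 70.2% and 58.7% of other scars. These scars still range widely in reads, and the part of read number in the difference was not tested. Counting reads below the limit as well, 91 of 101 members of R1, 6 of 7 of R2 and 17 of 19 of R3 had no read in another fish, and 57 of 102 of P1, 33 of 50 of P2 and 36 of 41 of P3; without barcode 24, 57 of 61 members of P1 had none. Of the other scars, 38.7%, 17.3% and 21% in R1, R2 and R3 and 32.7%, 21.8% and 42.1% in P1, P2 and P3 had no read in another fish.

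Against the classes nearest in structure the difference in single-fish scars was smaller. The deletions-only scars with 3 or more events were kept in 1 fish for 95.1%, 87% and 85.1% in R1, R2 and R3 and for 89.9%, 66.4% and 96.8% in P1, P2 and P3. Members were the higher in 3 fish and the lower in 3, with a mean difference of 2.93 percentage points (exact sign-flip permutation p = 0.375, adjusted 0.482). Scars of 1 deletion with 1 insertion were kept in 1 fish for 78.6%, 91.3% and 75% in R1, R2 and R3 and for 75.5%, 74.7% and 66.7% in P1, P2 and P3. Members were the higher in 5 fish, R2 being the exception, by a mean of 12.7 percentage points (exact sign-flip permutation p = 0.09375, adjusted 0.211). When a scar had to lack any read in another fish, the same difference was 45 percentage points and held in 6 of 6 fish (exact permutation p = 0.031). In that form, 90.1%, 85.7% and 89.5% of members of R1, R2 and R3 had no read elsewhere, against 38.4%, 47.8% and 25% of the scars of 1 deletion with 1 insertion, and 55.9%, 66% and 87.8% in P1, P2 and P3, against 28.4%, 38% and 27.5%. Without barcode 24 the P1 values were 93.4% of members, against 39.7%. The mean difference was then 49.4 percentage points (exact permutation p = 0.031), with the reads of barcode 24 still counted against the other fish. These 2 classes also differed in reads. The median highest library count in R1, R2 and R3 was 18, 13 and 19 for members, against 30, 43 and 23 for 1 deletion with 1 insertion. In P1, P2 and P3 it was 26.5, 20.5 and 24, against 19, 36 and 25. The part of read number in this difference was not tested. Against deletions-only scars, again with no read allowed in another fish, the difference was 5.17 percentage points (exact permutation p = 0.281). Members were lower in P1 (55.9%, against 67%) and P3 (87.8%, against 88.7%). With barcode 24 left out of the P1 scars only, the difference was 7.75 percentage points (exact permutation p = 0.0625).

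Between injections, the share of members kept in 1 fish averaged 92.8 ± 6.37% with Cas9 RNA and 86.5 ± 9.68% with Cas9 protein (SD, n = 3 fish each), a difference of 6.37 percentage points (two-sided exact permutation p = 0.5, adjusted 0.563). Without barcode 24 the Cas9 RNA fish were at 92.8 ± 6.37% and the Cas9 protein fish at 98.4 ± 2.82%, and the difference was -5.55 percentage points (exact permutation p = 0.2). When no read in another fish was allowed, the difference was 18.5 percentage points (exact permutation p = 0.2). With barcode 24 left out of the P1 members only, it was 6.01 (exact permutation p = 0.8). The reads of barcode 24 still counted against P2 there, which stayed at 66%. Whether the sign also turns under this limit when that library is left out fully was not tested.

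Of the 15 members kept in 2 fish, 12 were shared by P1 and P2, 2 by R1 and P3, and 1 by R2 and R3. All 12 of the first kind reached 10 reads in P1 in barcode 24 and in no other library. Their reads in P1 were 0.421 to 0.759 times those in P2, with a median of 0.614, so the ratio was alike over scars of very different number. The highest of them was 525M2D6M1D17M4I169M, with 992 of 1058 P1 reads in barcode 24, beside 1680 reads spread over P2. The other 3 were not kept in P1. The scar 517M5D6M1D16M1I175M had 7647 reads in R1, reaching 10 in 21 libraries, and 97 reads in P3, of which 85 were in barcode 23. The scar 519M3D6M1D16M1I175M had 319 reads in R1, 291 of them in barcode 7, and 72 reads in P3, 63 of them in barcode 23. These 2 differ by 2 bases of the first deletion and were highest in the same library of each fish. The scar 513M8D6M5D9M1I179M had 13 reads in R2, all in barcode 7, and 21 in R3, 19 of them in barcode 12, close to the limit. In read shares barcode 7 of R2 overlapped by 5.06% with R3 and 13.4% with its own fish. Barcode 12 of R3 overlapped by 9.22% with R2 and 13.5% with its own fish.

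Members were found in few libraries of a fish. Of the 320 occurrences, 227 reached 10 reads in a single library: 77 of 101 in R1, 7 of 7 in R2 and 13 of 19 in R3, and 71 of 102 in P1, 37 of 50 in P2 and 22 of 41 in P3. Barcode 24 was the single library of 41 of the 71, and without it 31 of 61 P1 members, and 187 of 279 occurrences in all, were in a single library. These counts have no value for other scars beside them, and members had fewer reads than the other scars. A member reached 10 reads in a mean of 7.12%, 7.69% and 11.3% of the libraries in R1, R2 and R3, against 16.1%, 22.9% and 28.7% for the other scars, and of 9.54%, 9.48% and 19.8% in P1, P2 and P3, against 18.7%, 21.2% and 22.2%. Members were the lower in 6 of 6 fish, by a mean of 10.8 percentage points (mean difference -10.8, exact sign-flip permutation p = 0.031, the smallest possible, adjusted 0.0938). The measure uses the same limit of 10 reads that kept a scar, so fewer reads by themselves favour a lower value. The part of read number in this difference was not tested. The gap in P3 was the narrowest. Without barcode 24 the P1 values were 13.8% for members, against 21.3%. The gap was smaller in each fish among scars with a highest count below 100 reads, where the values were 4.69%, 7.69% and 11.8% for members of R1, R2 and R3, against 6.70%, 11.8% and 14.3% for other scars, and 7.29%, 7.72% and 7.88% in P1, P2 and P3, against 8.42%, 10.3% and 10.1%. Without barcode 24, P1 members were in 10.2% of the libraries, against 9.79%, so the small gap in that fish turned. Among scars that reached 100 reads the gap was wide in R1 (23.6% for 13 members, against 37.2%), R3 (7.14% for 2 members, against 49.5%), P1 (22.6% for 15, against 44.2%) and P2 (16.5% for 10, against 47.4%), and ran the other way in P3 (62.3% for 9 members, against 52%).

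Where a member was found, most of its reads usually came from 1 library. The median share of reads in the top library was 80%, 100% and 89.2% for members of R1, R2 and R3, and 87.7%, 95.2% and 35.5% for those of P1, P2 and P3. It was 48.6% in P1 without barcode 24, so P3 and P1 were then the lowest. Only 12 of 320 occurrences reached 10 reads in at least 0.5 of the libraries of their fish: 3 in R1, 2 in P1, 1 in P2 and 6 in P3. The shares in the top library and these counts describe members alone, without values for other scars. A member was kept through its library with most reads, so the limit itself favours a high share there. Between injections the mean share of libraries per member was 8.70 ± 2.25% with Cas9 RNA and 12.9 ± 5.96% with Cas9 protein (SD, n = 3 fish each), a difference of -4.25 percentage points (two-sided exact permutation p = 0.3, adjusted 0.45), which is within the spread among fish. Without barcode 24 it was -5.66 percentage points (exact permutation p = 0.2).

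The number of members found in a library went with its depth in most fish. Spearman's rho between the reads of a library and the members with 10 reads in it was 0.90, 0.36 and 0.73 in R1, R2 and R3, and 0.92, 0.60 and 0.32 in P1, P2 and P3 (0.91 in P1 without barcode 24), given as a description over the libraries of 1 fish each. A library held up to 22, 3 and 8 members in R1, R2 and R3, and up to 43, 38 and 16 in P1, P2 and P3, the 43 being in barcode 24 (up to 26 in P1 without it). A count of 0 member reads allowed a share of up to 0.149% in the library of R2 with fewest scarred reads, above every member share measured in that fish. Strings of this structure with at least 1 read numbered 9357 over the 6 fish, of which the limit of 10 reads kept 320. There were 26 occurrences whose highest count was 10 reads, just inside the limit, and 29 whose highest count was 9, just outside it.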

How the data were processed

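Small body parts of 6 fish were dissected, GFP was amplified from genomic DNA with barcoded primers and sequenced. The authors mapped the reads with BWA 0.7.16a, per the labels, and deposited counts: whole-number reads of each alignment string in each barcode, without normalization or molecular identifiers. PCR reads are not independent molecules, so intervals (95%, Wilson) and the limit that a count of 0 allows (3 reads) cover counting error only. Groups came from the labels. Members and lists were chosen with earlier results of these data known.

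Strings were parsed with Python 3.11.15, NumPy 2.4.6, pandas 2.3.3 and SciPy 1.17.1; the parser and tests were tested on simulated data. Shares are of scarred reads, that is all strings except the unedited 720 bp. Fish were compared by exact permutation over 3 against 3 fish, or by sign flips over 6 fish, two-sided, with Benjamini-Hochberg adjustment over 9 comparisons. Named scars are, in each fish, that with most reads and that in most libraries, and over all members that with most events, longest span, largest net gain and largest net loss; others are marked. Alternatives changed the limits of reads, libraries and events, the fish and libraries used, and the definition of a single-fish scar. Barcodes under 1000 reads and the unedited string were left out. For the condition of no read in another fish, however, reads in every barcode of the other fish were counted. No sequence of the transgene was used here.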

Additional observations from a re-analysis of the deposited data

How the results depend on the processing

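With every barcode used or with libraries of 10000 or more reads, all 9 comparisons kept their direction and their side of 0.05. The limit of 10000 reads left out only barcode 16 of P1, with 2802 reads, so it could change little. Counting a touching deletion and insertion as 1 event could change nothing, because no 2 events of a member touched. Using every barcode, however, moved the share of libraries against other scars to -3.71 percentage points, its injection difference to -1.17 and the injection difference in the share of scarred reads to -0.00686, since barcodes almost without reads then count as libraries. With 100 reads as the limit 49 occurrences remained and R2 had none, so 5 fish could be tested and p could not go below 0.0625: members exceeded other scars in single-fish share by 51.1 percentage points, were in fewer libraries (-11.8 percentage points) and had the shorter span than deletions-only scars (-4.00 bp), each with p = 0.0625 in the exact permutation test. With 0.1% of the reads of a library as the limit 26 occurrences remained, and the same values were 57.7, -13.8 and -1.30. Without scars that hold a 1-bp event 4 occurrences in 3 fish remained, and they were 57.8, -15.7 and -2.67, of which the exact permutation p was 0.25, 0.25 and 1.

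Leaving out each fish in turn gave 37.5 to 41.5 percentage points for single-fish share against other scars, -12.5 to -9.48 for the share of libraries and -7.50 to -5.10 bp for span, with p = 0.0625, the smallest that exact permutation over 5 fish allows. Cas9 RNA minus Cas9 protein ranged from -0.335 to 0.136 for the share of scarred reads and from -4.74 to 12.6 for single-fish share, so both changed sign; single-fish share was -4.74 without P1 and also without P2. The ranges were -3.34 to -0.979 for the percent of scars, -5.99 to -0.812 for the share of libraries, 1.34 to 4.04 for single-fish share against deletions-only scars and 8.44 to 17.2 against 1 deletion with 1 insertion.

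Requiring no read in another fish, single-fish share exceeded that of 1 deletion with 1 insertion by 45 percentage points. It was 49.4 with barcode 24 left out of the P1 scars and its reads still counted against the other fish. Without barcode 24, an alternative chosen after seeing the data, the injection difference in single-fish share was -5.55, and the other comparisons kept direction and side. With the replicate block (R1 with P1 and so on) the injection differences were the same, -0.0751, -2.06, 6.37 and -4.25, and p was 0.75, 0.25, 0.5 and 0.25 in the exact sign-flip permutation test, whose smallest p is 0.25; the numbers only name the fish. Pooling reads gave a share difference of -0.0696. Depth limits the shallow libraries most, where 3 reads were up to 0.163% of scarred reads.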
